A study of Mus musculus with 12 samples.

Results

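Fatty acid oxidation was described here by 41 genes, taken by symbol from the 35275 genes counted in mouse kidney. They encode the enzymes that activate fatty acids and carry them into mitochondria, the beta-oxidation spiral, the auxiliary enzymes for unsaturated chains, the electron transfer proteins, the peroxisomal branch, and 3 regulators. Each symbol was taken at its row with the most reads. Kidneys came from 12 C57BL/6J mice aged 6 months, with 4 mice in each of 3 groups. WT mice carried no engineered allele. RC/RC mice (genotype Pkd1RC/RC) carried the RC missense knock-in of Pkd1 on both chromosomes, a hypomorphic allele present in every cell that gives slowly progressive cystic disease. RC/RC:Casp1KO mice (genotype Pkd1RC/RC-Casp1KO) carried the same RC alleles and, in addition, a homozygous deletion in Casp1 made with TALENs, from a single mutation that was bred into the RC/RC line. Both RC groups therefore share the Pkd1 allele, and no group had the Casp1 deletion without it. Each group held 2 females and 2 males, but the count columns name a mouse and not its sex, so no result is given by sex.

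Beta-oxidation shortens an acyl-CoA by repeated cycles of dehydrogenation, hydration, dehydrogenation and thiolysis, and the electrons pass through the electron transfer flavoprotein to the respiratory chain. Long chains enter mitochondria as acylcarnitines, and very long and branched chains are first shortened in peroxisomes. The proximal tubule of the kidney meets most of its energy demand in this way. PPARα (Ppara) is the nuclear receptor that drives many of these genes, and PGC-1α (Ppargc1a) is a coactivator of it and of mitochondrial biogenesis.

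Libraries held between 18019819 and 24869454 counted reads. The 41 genes together held 1.13% to 1.53% of the reads in WT mice, 0.91% to 1.61% in RC/RC mice and 1.19% to 1.57% in RC/RC:Casp1KO mice. All 41 passed the filter on low counts in each comparison, and the fewest reads for any member in any mouse were 21, for Acsm3. Levels are given as FPKM, the reads counted on a gene divided by its length and by the scaled size of the library. Where a level is given for every mouse, the order is B6_2, B6_3, B6_4 and B6_6 for WT, RC105, RC139, RC140 and RC143 for RC/RC, and Del3_60, Del3_105, Del3_42 and Del3_70 for RC/RC:Casp1KO. Differences are log2 fold changes with their standard errors (SE), and a gene was called where edgeR's quasi-likelihood test gave a Benjamini-Hochberg adjusted p under 0.05 over all genes tested.

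The genotypes were first examined in the targeted genes. Casp1, the inflammatory caspase, was at 1.37, 0.859, 0.874 and 0.944 FPKM in WT mice, at 2.22, 2.58, 2.83 and 1.75 FPKM in RC/RC mice and at 0.255, 0.446, 0.444 and 0.707 FPKM in RC/RC:Casp1KO mice. The knockout mice lay below every mouse of the other groups, and the log2 fold change from RC/RC to RC/RC:Casp1KO was -2.35 (SE 0.32, edgeR adjusted p = 0.00514). Against WT, Casp1 was called higher in RC/RC (1.21), and its fall in RC/RC:Casp1KO (-1.12) was not called. Pkd1 is mutated by a base change, so its level does not test the label, and it ranged from 2.84 to 6.16 FPKM over the 12 mice.

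Stretches of DNA are shown first because the genes behind them, Ppargc1a, Eci1 and Ech1, were each called in a comparison below. Ppara, also called below, has none shown because GENCODE transcripts of the gene contain all 250 bases of its window before the start. The stretches were taken from RefSeq's promoter windows (GRCm38.p6, the build of the deposited coordinates), read 5′ to 3′ on the strand of the gene, and cut to the bases that no GENCODE transcript of the gene contains. The windows lie at chr5:51567726-51567975 on the minus strand for Ppargc1a (250 bases, 48.0% G and C, 5 CpG), at chr17:24426433-24426631 on the plus strand for Eci1 (199 bases, 59.8% G and C, 7 CpG) and at chr7:28825088-28825198 on the plus strand for Ech1 (111 bases, 44.1% G and C, 3 CpG). None of the 3 motifs described next occurs in them, so no letter is in capitals.
Ppargc1a: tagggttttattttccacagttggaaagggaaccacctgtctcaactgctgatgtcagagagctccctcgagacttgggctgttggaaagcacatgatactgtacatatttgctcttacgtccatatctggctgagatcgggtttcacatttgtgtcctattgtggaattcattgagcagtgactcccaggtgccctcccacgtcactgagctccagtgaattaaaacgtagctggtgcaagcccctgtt
Eci1: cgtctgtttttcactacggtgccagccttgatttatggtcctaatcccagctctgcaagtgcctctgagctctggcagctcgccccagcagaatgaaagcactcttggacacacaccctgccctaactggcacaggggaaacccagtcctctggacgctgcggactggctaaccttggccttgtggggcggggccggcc
Ech1: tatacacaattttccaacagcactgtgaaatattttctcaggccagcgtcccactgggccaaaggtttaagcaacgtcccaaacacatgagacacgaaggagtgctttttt

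A set of 3 motifs was looked for on both strands in the 250 bases before the start site, for the 36 members that the promoter table holds. The direct repeat known as DR1 (AGGTCA, any base, AGGTCA), the form of element that PPARα binds with its partner, was allowed 2 mismatches and was found before 2 of the 36 members, against 3.24% of the 32851 promoters of the table. Those were Echs1, at 83 to 71 bases before the start, and Etfa, at 77 to 65 bases before it. The estrogen-related receptor element TCAAGGTCA, held by 0.39% of all promoters, and the cAMP response element TGACGTCA, held by 1.55%, had no exact match before any of the 36. These are matches of letters only, and the direct repeat and the estrogen-related receptor element share the letters AGGTCA.

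Among all mice the highest levels belonged to Acsm2 (mean 484 FPKM), a medium-chain acyl-CoA synthetase, Acadm (471 FPKM), the medium-chain acyl-CoA dehydrogenase, and Etfb (439 FPKM), a subunit of the electron transfer flavoprotein. The lowest belonged to Pdk4 (8.75 FPKM), the kinase that turns off pyruvate dehydrogenase, and Ppargc1a (12.05 FPKM). Acadm was at 392, 478, 356 and 399 FPKM in WT mice, 490, 451, 465 and 588 FPKM in RC/RC mice and 663, 570, 427 and 369 FPKM in RC/RC:Casp1KO mice. The groups overlapped, and neither RC group differed from WT beyond the spread between mice (log2 fold changes of 0.30 and 0.32, adjusted p = 0.226 and 0.348 by edgeR).

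**Figure D1:**
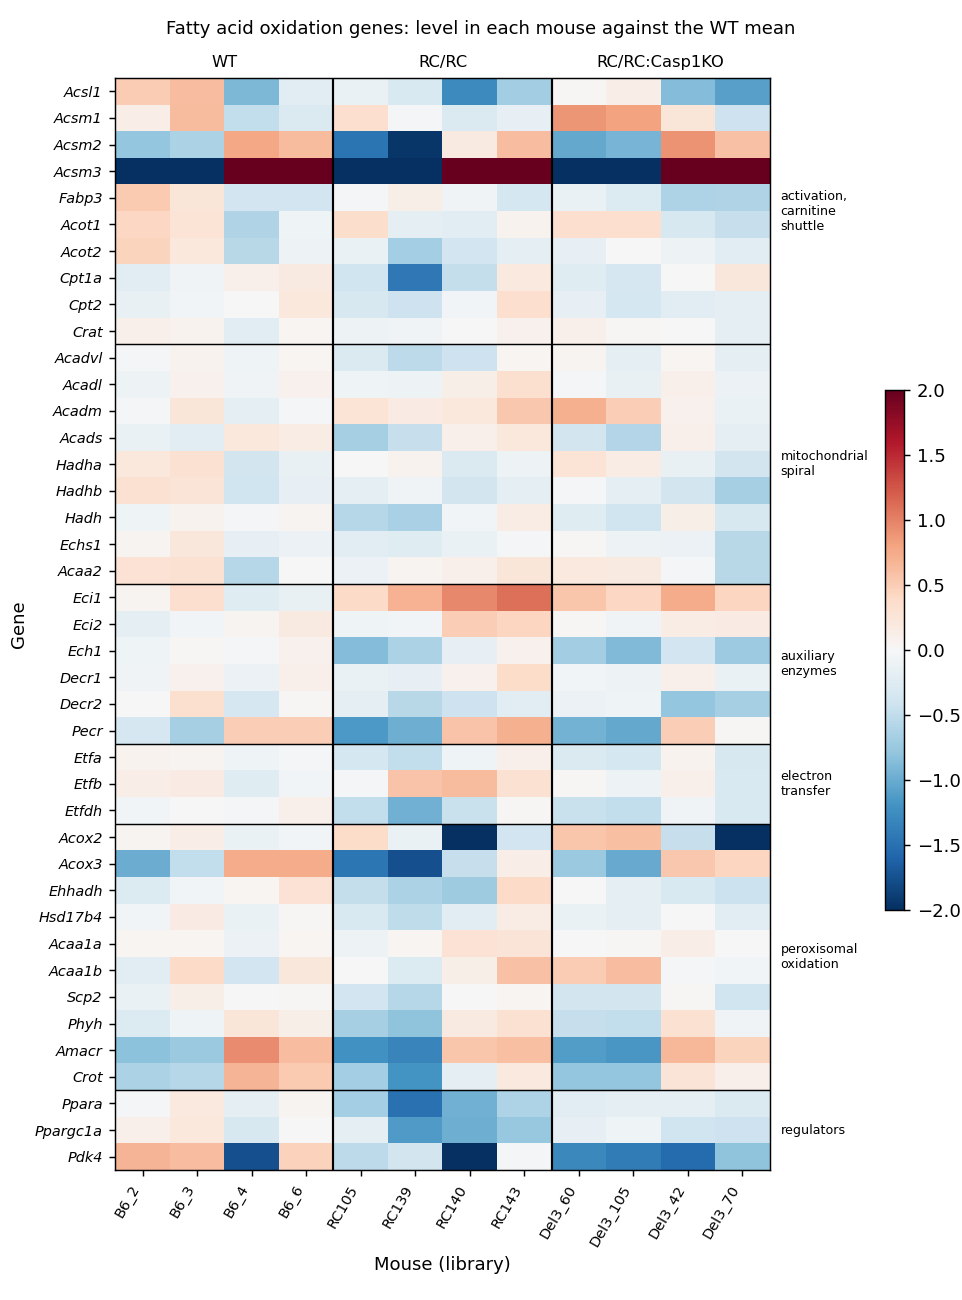
Level of each of the 41 genes (rows, by role) in each of the 12 mice (columns, by group), as the log2 ratio of FPKM to the WT mean of log2 FPKM, with colours limited to the range from -2 to 2. Most rows are pale, Ppara is blue in all 4 RC/RC mice, Eci1 is red in all 8 mice with the RC alleles, and Acsm3 changes colour between mice of the same group.

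The first question was how these genes differed between RC/RC and WT kidneys. In RC/RC against WT, 3 of the 41 were called, Ppara and Ppargc1a lower and Eci1 higher, where 12.9% of the 15243 genes tested were called (9.76% higher and 3.18% lower, that is 1487 and 484 genes, or 1634 and 263 with libraries scaled by their size alone and 1857 and 1043 by DESeq2). Lower estimates were the more frequent, in 32 of the 41, with a median log2 fold change of -0.20 beside -0.02 over all genes tested. The 41 split into 5 genes with an unadjusted p under 0.05 (the called genes, Decr2 and Etfdh) and 36 without. Only Eci1 lay higher in every RC/RC mouse than in every WT mouse (12.6% of all genes tested) and only Ppara lower (7.05%). Without mouse RC139, the library described below with adipocyte markers, 2 genes were called, Ppara and Eci1, and the median was -0.15. Without RC143, 5 were called, Eci1 higher and Acadvl, Ehhadh, Etfdh and Ppara lower, and the median was -0.32. Ppara alone was called without RC140 and without B6_6.

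Deletion of Casp1 in the mutant kidneys was the second question. In RC/RC:Casp1KO against RC/RC, 1 of the 41 was called, Ppara, which was higher, where 11.6% of 15428 genes were called (7.23% higher and 4.41% lower). The balance of 1116 higher and 681 lower genes was 814 and 179 with library size alone, 373 and 65 without RC140, 382 and 58 without Del3_105, and 719 and 688 without Del3_70. Estimates were divided, with 21 above and 20 below zero and a median of 0.00 on the log2 scale, beside -0.03 over all genes. Ppara was also the 1 member whose RC/RC:Casp1KO mice all lay above the RC/RC mice (11.8% of all genes), and for 0 members did they all lie below (8.65%). Etfb, Ppargc1a and Fabp3 had an unadjusted p under 0.05 and missed the adjusted threshold.

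The third comparison asked what remained different from normal kidneys when both alleles were present. In RC/RC:Casp1KO against WT, 1 of the 41 was called, Ech1, which was lower, where 2.03% of 15346 genes were called (1.13% higher and 0.893% lower, that is 174 and 137 genes, or 281 and 71 with library size alone and 245 and 116 with all 12 mice in one fit). Estimates were below zero for 35 of the 41 with a median of -0.17, beside 0.01 over all genes, and 6 had an unadjusted p under 0.05 (Ech1, Eci1, Pdk4, Etfdh, Ppara and Cpt2). Eci1 was higher in every knockout mouse than in every WT mouse (7.41% of all genes), and Ech1, Etfdh and Cpt2 were lower (6.5%). The same WT mice and the same RC/RC mice each served in a pair of comparisons, so the 3 sets of estimates are not independent. When libraries were scaled by their size alone, the median over all genes moved to 0.08 in RC/RC against WT and to 0.14 in RC/RC:Casp1KO against WT, and the median of the 41 moved to -0.12 and -0.04.

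The 95% confidence interval of the difference lay within 1 log2 unit of zero, that is within a 2-fold change, for 28 members in RC/RC against WT and for 31 members in each of the comparisons with RC/RC:Casp1KO. For these members a change of more than 2-fold lay outside the interval. The intervals of the others reached further, above all for Acsm3 (-5.12 to 2.60 in RC/RC against WT).

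**Figure D2:**
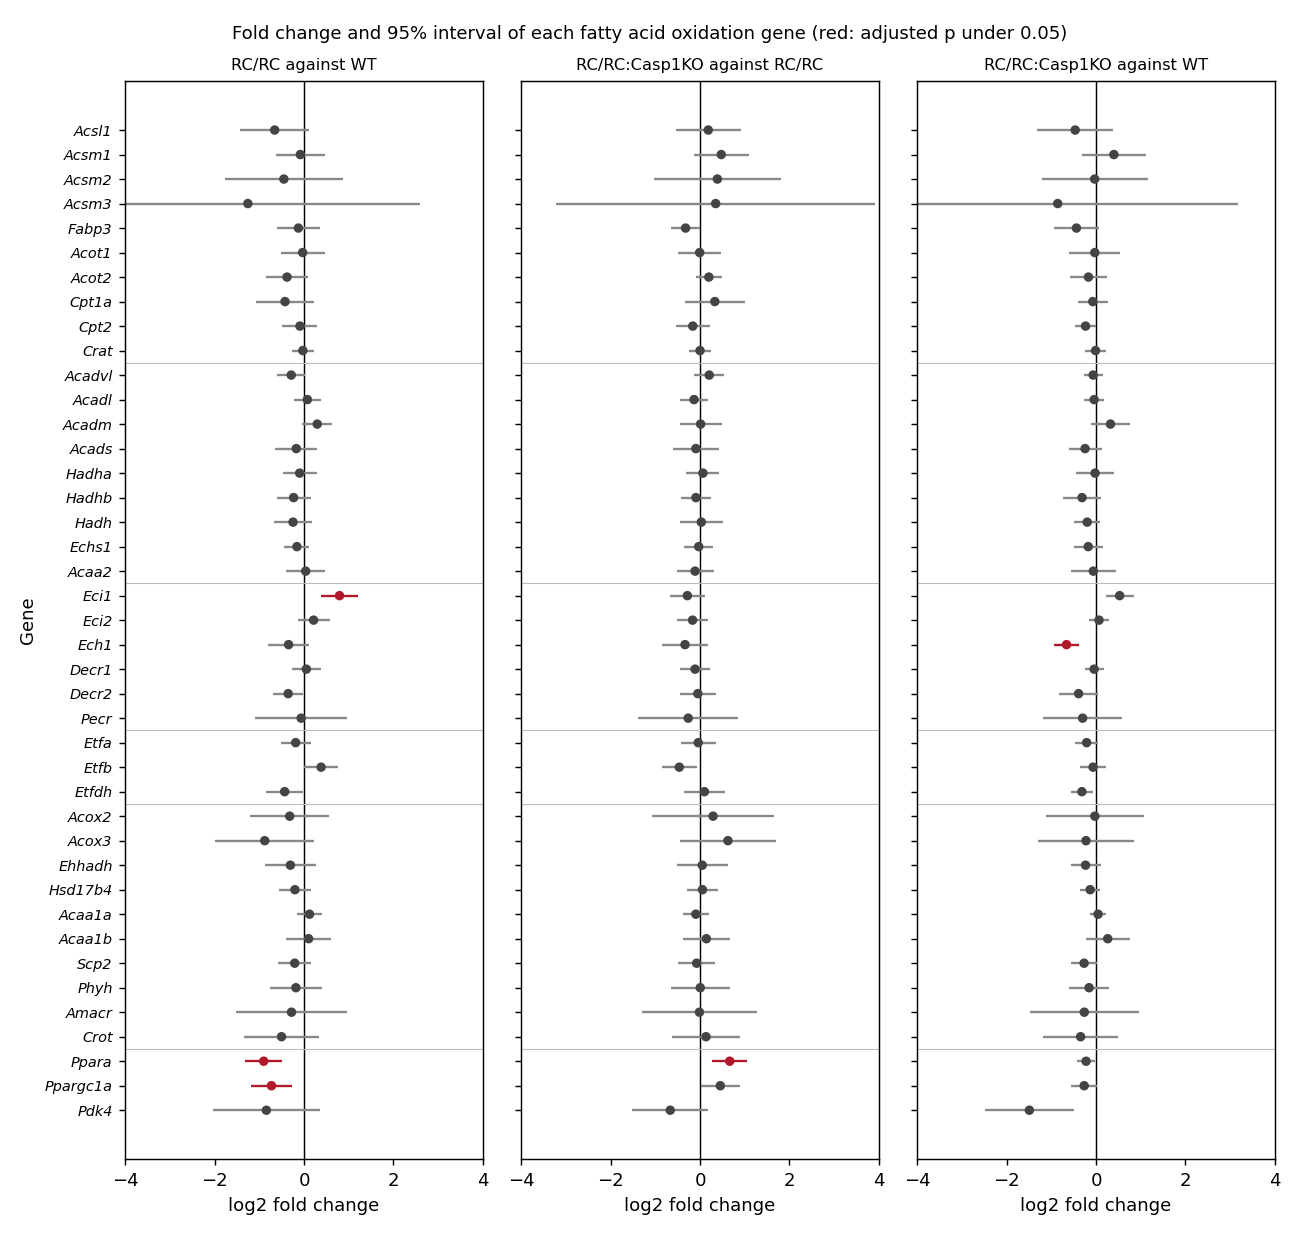
Log2 fold change (point) and 95% confidence interval (line) of each of the 41 genes in the 3 comparisons, with called genes in red and grey rules between roles. The axis ends at -4 and 4, which crops the interval of Acsm3 in the first and last panels, and the red points are Ppara, Ppargc1a and Eci1, then Ppara, then Ech1.

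Of the regulators, Ppara was at 25.1, 29.5, 22.6 and 26.8 FPKM in WT mice, at 16.2, 9.15, 13.3 and 16.9 FPKM in RC/RC mice and at 22.01, 22.8, 22.8 and 21.3 FPKM in RC/RC:Casp1KO mice. Every RC/RC mouse lay below every mouse of the other groups, while the knockout mice overlapped with WT at its lower end. The level fell from 26.0 ± 2.95 to 13.9 ± 3.52 FPKM (SD, n = 4 each) between WT and RC/RC, a log2 fold change of -0.90 (SE 0.19, adjusted p = 0.013 by edgeR). It was 22.2 ± 0.725 FPKM (SD, n = 4) in the knockout mice, a log2 fold change of 0.66 from RC/RC (SE 0.18, adjusted p = 0.0421) and of -0.22 from WT (95% interval -0.43 to -0.01, adjusted p = 0.21). Leaving out RC140, or any single knockout mouse, brought the adjusted p of the difference between the RC groups above 0.05, up to 0.113, with log2 fold changes from 0.64 to 0.69. Ppara shares 1806 bases with a transcript annotated to its neighbour Cdpf1, and reads there could have been counted for either gene. Whole kidney RNA cannot tell fewer cells that express a gene from less of its RNA per cell, and this holds for every difference below.

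Ppargc1a was at 15.7, 17.0, 11.9 and 14.9 FPKM in WT mice, at 12.9, 6.72, 7.46 and 8.70 FPKM in RC/RC mice and at 13.2, 13.9, 11.2 and 11.1 FPKM in RC/RC:Casp1KO mice. RC105 lay among the WT and knockout mice, and the other RC/RC mice lay below all of them. The log2 fold change between WT and RC/RC was -0.73 (SE 0.21, adjusted p = 0.0475 by edgeR), close to the threshold, and leaving out any one mouse other than RC105 or B6_4 took it past the threshold, with adjusted p up to 0.128. The call was also lost with library size alone (-0.62, adjusted p = 0.102 by edgeR) and with at least 10 counts in every mouse (-0.71, adjusted p = 0.0543). Between the RC groups it was 0.45 (SE 0.19, adjusted p = 0.144), and without RC105 it was 0.67 (adjusted p = 0.0219).

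Pdk4 is a target of PPARα that spares glucose when fatty acids are burned. It was at 18.4, 17.5, 3.39 and 15.7 FPKM in WT mice, at 7.93, 8.88, 2.46 and 11.3 FPKM in RC/RC mice and at 4.67, 4.34, 3.91 and 6.54 FPKM in RC/RC:Casp1KO mice. One WT mouse, B6_4, lay below all the knockout mice, while the other WT mice lay above all 8 mutant mice. The log2 fold change between WT and the knockout mice was -1.49 (SE 0.44, adjusted p = 0.121 by edgeR), and it was not called. Without B6_4 it was -1.84 and was called, as it was by DESeq2 (-1.51, adjusted p = 0.00836). From RC/RC to the knockout mice a call was gained without RC140 (-0.96, adjusted p = 0.0482 by edgeR).

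**Figure D3:**
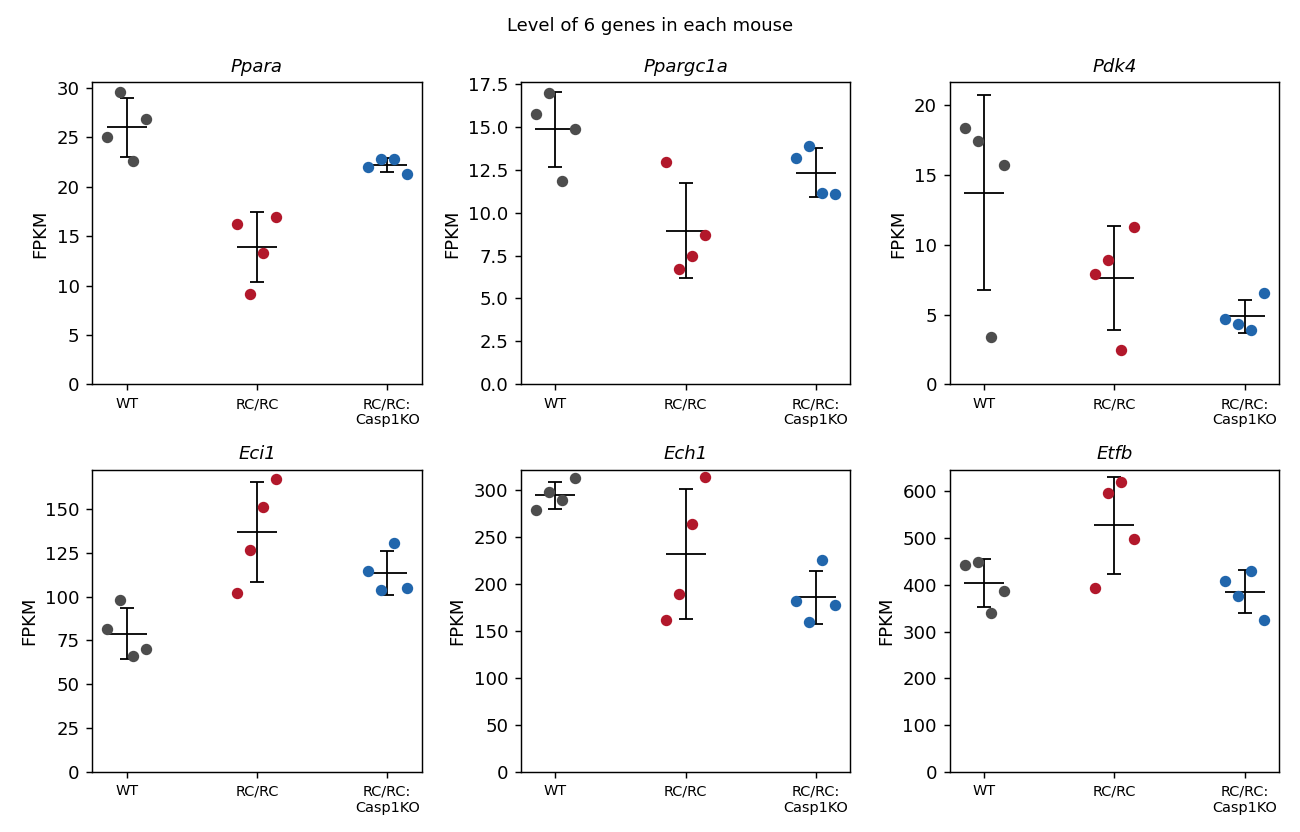
FPKM of Ppara, Ppargc1a, Pdk4, Eci1, Ech1 and Etfb in each mouse (points), with the group mean and SD (bars, n = 4). RC/RC mice are below all others for Ppara (9.15 to 16.9 FPKM), and all 8 mice with the RC alleles are above all WT mice for Eci1.

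The auxiliary enzymes for unsaturated fatty acids held both other called genes. Eci1, the mitochondrial enoyl-CoA isomerase that shifts double bonds, was at 81.3, 98.0, 65.8 and 70.1 FPKM in WT mice, at 102, 127, 151 and 167 FPKM in RC/RC mice and at 115, 104, 131 and 104.6 FPKM in RC/RC:Casp1KO mice. No mouse with the RC alleles overlapped with WT. The log2 fold change was 0.79 in RC/RC (SE 0.18, adjusted p = 0.0204 by edgeR) and 0.53 in RC/RC:Casp1KO (SE 0.14, adjusted p = 0.0923) against WT, and -0.28 between the RC groups (adjusted p = 0.286). The call in RC/RC was lost without RC140, B6_4 or B6_6, with adjusted p up to 0.0683. In RC/RC:Casp1KO a call was gained with library size alone (0.66, adjusted p = 0.0353 by edgeR) and by DESeq2 (0.52, adjusted p = 0.016).

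Eci1 lies on chromosome 17 (24426683 to 24439316, mm10), and its nearer end is 111 kb from the nearer end of Pkd1, the gene that carries the knock-in in both RC groups. Within 1000 kb of Pkd1, 22.2% of 72 genes were called in RC/RC against WT and 11% of 73 in RC/RC:Casp1KO against WT, beside the 12.9% and 2.03% over all genes. The share was 17.6% of 74 between the RC groups, which both carry the knock-in chromosome, beside 11.6% over all genes. Rnps1, the neighbour of Eci1, fell by 1.46 in RC/RC and 1.43 in RC/RC:Casp1KO against WT on the log2 scale (edgeR adjusted p = 6.52e-05 and 0.000102), and Atp6v0c, also in that window, fell by 1.76 and 1.68. Rnps1 and Atp6v0c were singled out after their values had been seen. An effect of the RC alleles through disease and a difference carried with the knock-in chromosome cannot be told apart for Eci1, because both RC groups carry that chromosome.

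**Figure D4:**
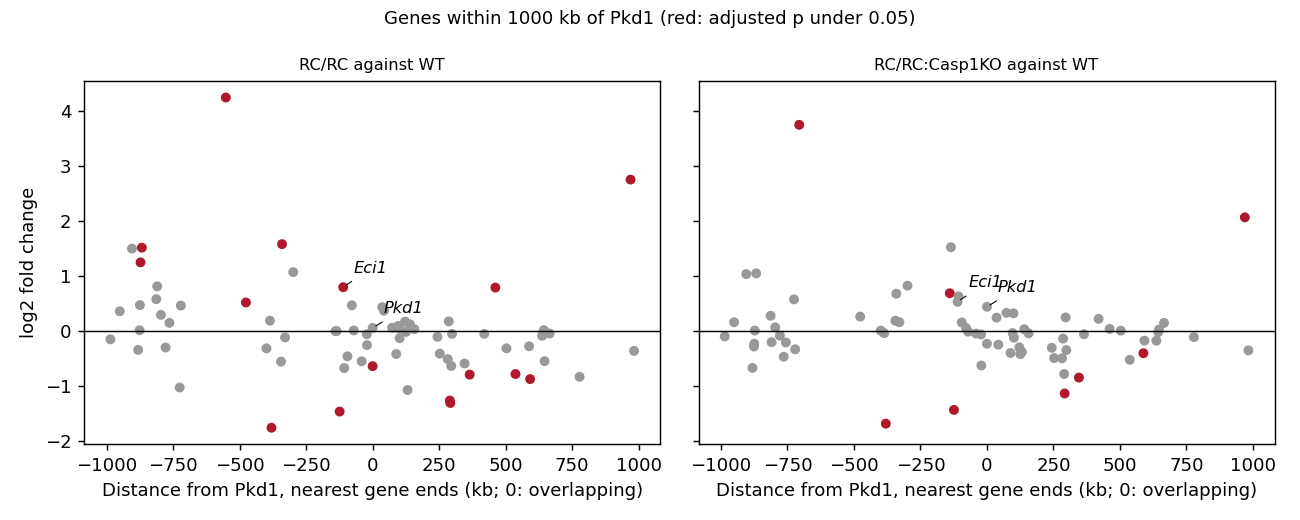
Log2 fold change of each gene tested within 1000 kb of Pkd1 against its distance from Pkd1 in kb, measured between the nearest ends of the genes (0 where they overlap), in both comparisons with WT, with called genes in red. Eci1 stands at -111 kb with 0.79 and 0.53, among genes called in either direction.

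Ech1, a dienoyl-CoA isomerase of mitochondria and peroxisomes, was at 279, 298, 290 and 312 FPKM in WT mice, at 161, 189, 264 and 314 FPKM in RC/RC mice and at 182, 159, 225 and 178 FPKM in RC/RC:Casp1KO mice. All knockout mice lay below all WT mice, whereas the RC/RC mice spanned both. The log2 fold change between WT and the knockout mice was -0.66 (SE 0.12, adjusted p = 0.0307 by edgeR), and against WT it was -0.34 in RC/RC (SE 0.20, adjusted p = 0.287). The direct test between the RC groups gave -0.34 (SE 0.22, adjusted p = 0.333). The call against WT was lost in 7 of the 8 fits that left out a mouse, where the adjusted p reached 0.0919, and with all 12 mice in one fit (-0.66, adjusted p = 0.0862).

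The other auxiliary enzymes were not called. Decr2, the peroxisomal dienoyl-CoA reductase, was at 37.3, 47.1, 30.0 and 38.4 FPKM in WT mice, 33.2, 25.7, 28.2 and 32.4 FPKM in RC/RC mice and 34.7, 35.5, 22.2 and 23.8 FPKM in RC/RC:Casp1KO mice. Its groups overlapped, and the log2 fold changes against WT were -0.35 and -0.39 (edgeR adjusted p = 0.148 and 0.263). The mitochondrial reductase Decr1 (0.05 and -0.04), the isomerase Eci2 (0.21 and 0.07) and the peroxisomal trans-enoyl reductase Pecr (-0.06 and -0.30) had log2 fold changes near zero or, for Pecr, with wide intervals.

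Electron transfer proteins pass the electrons of beta-oxidation to ubiquinone. Etfb was at 443, 448, 340 and 386 FPKM in WT mice, at 393, 597, 621 and 498 FPKM in RC/RC mice and at 409, 376, 430 and 325 FPKM in RC/RC:Casp1KO mice. RC139, RC140 and RC143 were above all other mice, and RC105 was among the others. The log2 fold change was 0.38 from WT to RC/RC (SE 0.17, adjusted p = 0.174 by edgeR) and -0.46 from RC/RC to the knockout (SE 0.18, adjusted p = 0.109). Without RC105 the latter was -0.59 (adjusted p = 0.0327 by edgeR). Etfb shares 626 bases at 99.7% identity with a transcript annotated under another gene name, so its reads may have been divided.

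Etfdh, the ubiquinone oxidoreductase, was at 48.6, 50.3, 49.5 and 54.5 FPKM in WT mice, at 36.0, 25.9, 37.2 and 51.2 FPKM in RC/RC mice and at 37.1, 36.0, 48.2 and 41.2 FPKM in RC/RC:Casp1KO mice. The knockout mice did not overlap with WT, and RC143 did. Its log2 fold changes against WT were -0.43 (SE 0.19, adjusted p = 0.16 by edgeR) and -0.32 (SE 0.11, adjusted p = 0.156). Without RC143 the first was -0.62 and was called. Etfa, the other subunit of the flavoprotein, had values of -0.19 and -0.21.

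Activation and carnitine transport were covered by 10 genes, of which none was called in any comparison. In RC/RC against WT all 10 estimates were below zero with a median of -0.25, and between the RC groups 7 were above zero. Cpt1a, the carnitine palmitoyltransferase that limits entry of long chains, was at 104 to 136 FPKM in WT mice, at 44.4 to 137 FPKM in RC/RC mice and at 94.95 to 140 FPKM in RC/RC:Casp1KO mice, with log2 fold changes of -0.42 and -0.07 against WT (adjusted p = 0.352 and 0.809 by edgeR). The lowest of these levels was that of RC139. Cpt2, the inner membrane transferase, differed from WT by -0.09 in RC/RC and by -0.23 in the knockout mice, which did not overlap with WT (adjusted p = 0.22). Crat, the carnitine acetyltransferase, stayed between 30.1 and 37.5 FPKM in all 12 mice.

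Fabp3, a cytosolic fatty acid binding protein, was at 121, 100, 64.4 and 64.6 FPKM in WT mice, at 82.6, 91.9, 80.6 and 66.1 FPKM in RC/RC mice and at 77.3, 69.96, 54.9 and 55.8 FPKM in RC/RC:Casp1KO mice. Groups overlapped, with -0.32 between the RC groups (SE 0.14, adjusted p = 0.155 by edgeR). Acsl1, the long-chain acyl-CoA synthetase, had the log2 fold change -0.66 in RC/RC (SE 0.35, adjusted p = 0.241). The thioesterases Acot1 and Acot2 hydrolyse acyl-CoA in cytosol and mitochondria and share 1274 bases at 95.1% identity, so how reads were divided between them is uncertain. Acot1 was at 76.9, 69.5, 37.9 and 54.1 FPKM in WT mice, 73.5, 50.7, 49.0 and 60.2 FPKM in RC/RC mice and 72.3, 72.9, 46.1 and 41.99 FPKM in RC/RC:Casp1KO mice. Acot2 was at 23.8, 20.1, 11.9 and 16.1 FPKM in WT mice, 15.9, 10.8, 13.3 and 15.2 FPKM in RC/RC mice and 15.5, 17.2, 16.3 and 14.8 FPKM in RC/RC:Casp1KO mice. Acot1 was the more abundant of this pair in every mouse, and neither was called.

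The mitochondrial spiral itself, with 9 genes, showed no call, and each of its 27 intervals lay within 1 log2 unit of zero. The median log2 fold changes were -0.16, -0.03 and -0.06 in RC/RC against WT, RC/RC:Casp1KO against RC/RC and RC/RC:Casp1KO against WT. Estimates in RC/RC against WT ran from -0.29 for Acadvl, the very long-chain dehydrogenase, to 0.30 for Acadm. Those of Acadl (long-chain dehydrogenase, 0.07) and Acads (short-chain dehydrogenase, -0.17) fell between these. The trifunctional protein subunits Hadha (-0.10) and Hadhb (-0.23), the hydroxyacyl-CoA dehydrogenase Hadh (-0.25), the hydratase Echs1 (-0.16) and the thiolase Acaa2 (0.04) also lay close to zero. Without RC143, Acadvl was called lower in RC/RC.

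Peroxisomal oxidation was represented by 10 genes, none of them called. Of these, 8 had estimates below zero in RC/RC against WT, with a median of -0.24. They were the acyl-CoA oxidases Acox2 (-0.32) and Acox3 (-0.88), the bifunctional enzymes Ehhadh (-0.31) and Hsd17b4 (-0.20), the sterol carrier and thiolase Scp2 (-0.21), the phytanoyl-CoA hydroxylase Phyh (-0.18), the racemase Amacr (-0.28) and the carnitine octanoyltransferase Crot (-0.50). The SE of Acox3 was 0.50 and that of Ehhadh 0.25, and without RC143 Ehhadh was called lower in RC/RC.

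The thiolases Acaa1a and Acaa1b close each peroxisomal cycle and share 1428 bases at 96.6% identity, so their reads are not fully separable. Acaa1a was at 47.1, 47.5, 42.6 and 47.2 FPKM in WT mice, 42.7, 47.1, 56.1 and 55.0 FPKM in RC/RC mice and 46.2, 46.6, 50.7 and 46.2 FPKM in RC/RC:Casp1KO mice. Acaa1b was at 128, 194, 114 and 174 FPKM in WT mice, 148, 123, 161 and 223 FPKM in RC/RC mice and 212, 229, 146 and 143 FPKM in RC/RC:Casp1KO mice. Acaa1b was the more abundant in every mouse and varied more, with log2 fold changes of 0.10 and 0.26 against WT (edgeR adjusted p = 0.794 and 0.501).

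For several members the mice of a group differed more among themselves than the groups did. Acsm3, a medium-chain acyl-CoA synthetase, was at 0.304, 1.05, 150 and 97.8 FPKM in WT mice, at 0.487, 1.38, 38.3 and 64.4 FPKM in RC/RC mice and at 0.579, 0.998, 59.0 and 76.6 FPKM in RC/RC:Casp1KO mice. Each group thus held 2 mice at 1.38 FPKM or below and 2 mice at 38.3 FPKM or above. Acsm2 was lowest in the same mice, at 280, 306, 817 and 739 FPKM in WT mice, 174, 124, 542 and 730 FPKM in RC/RC mice and 234, 249, 892 and 716 FPKM in RC/RC:Casp1KO mice. In 9 of the 41 members, Acsm3 included, the 2 lowest mice of every group were these same mice, and in 6 members they were the 2 highest. The share of all genes that followed this split was not computed, so it is not shown to be particular to these members. Beside Acsm3 and Acsm2, Acox3, Amacr, Pecr, Crot, Phyh and Eci2 had no overlap between the mice low in Acsm3 and the others. For Amacr the ranges were 31.7 to 47.1 FPKM and 107 to 152 FPKM. Hadha had no overlap in the opposite direction, at 69.1 to 84.5 FPKM in the mice low in Acsm3 and 53.0 to 63.9 FPKM in the others. Outside the 41, the proximal tubule markers Slc7a13, Cyp7b1, Slc22a30 and Kap were picked for the same look, and they showed the split too. Slc7a13, an amino acid transporter, was at 1.02 to 2.49 FPKM and at 248 to 517 FPKM. The other proximal tubule markers were not examined for it.

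The mice of this split are described by their values only, since the column names do not give the sex that the labels give. Each group held 2 females and 2 males, and whether the split followed sex was not tested. The main fits had no term for sex. The within-group SD was 3.95 log2 units for Acsm3, 1.03 for Acsm2 and 0.99 for Amacr. With 1 surrogate variable added to the fit, an alternative added after this pattern had been seen, Acsl1 and Acox3 joined the called genes in RC/RC against WT, both lower, and Acox3 joined Ppara among those higher in RC/RC:Casp1KO than in RC/RC. In RC/RC:Casp1KO against WT the calls went from 1 to 5 in that fit, with Crot, Eci1, Etfdh and Fabp3 called beside Ech1 (1 higher and 4 lower). Over all genes the calls in that fit were 2681, 2636 and 1347 in the 3 comparisons, against 1971, 1797 and 311 without the surrogate variable.

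**Figure D5:**
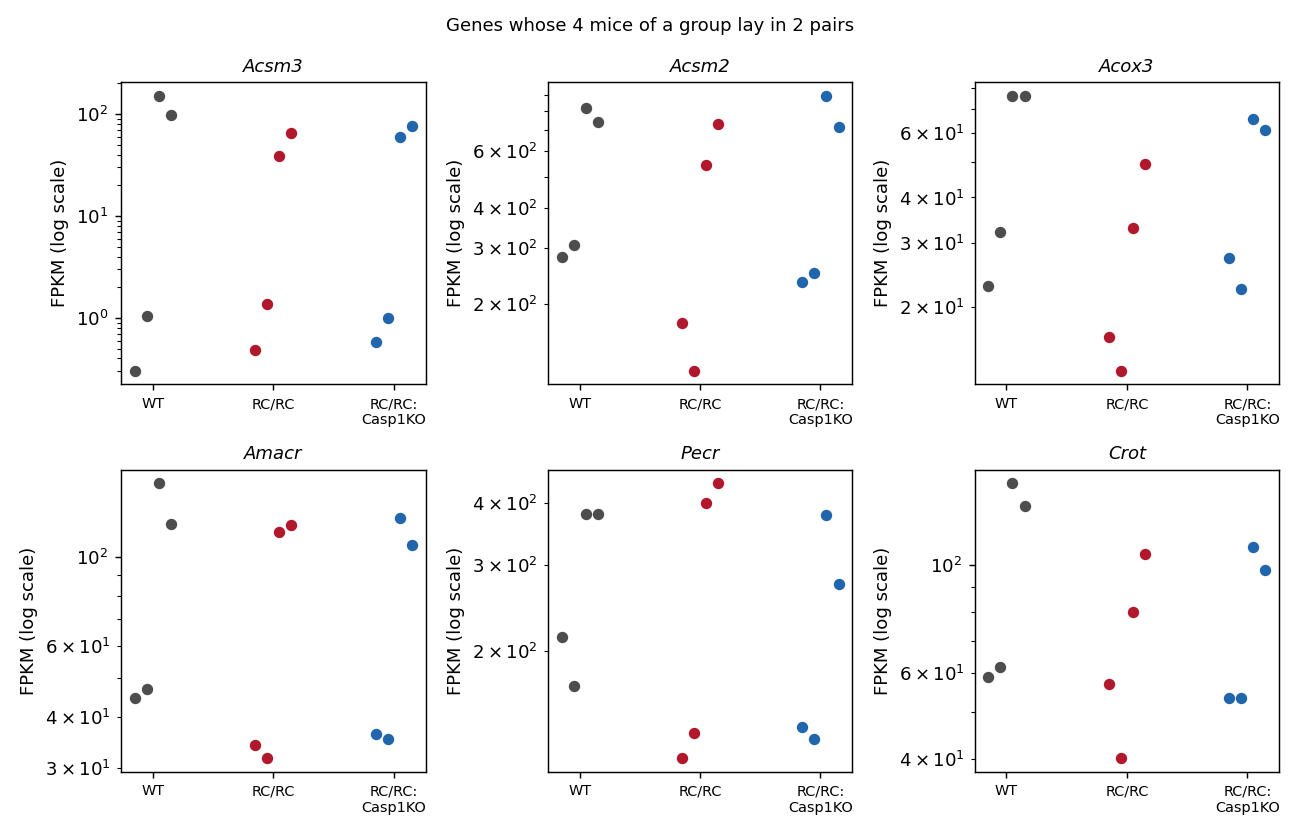
FPKM on a log scale of Acsm3, Acsm2, Acox3, Amacr, Pecr and Crot in each mouse (points, by group). In every group 2 mice are low and 2 are high for each of these genes, and for Acsm3 the low mice are at 0.304 to 1.38 FPKM and the high mice at 38.3 to 150 FPKM.

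Other genes of the pathway were taken from a list of 70, of which 68 were in the table and 64 or 65 could be tested. In RC/RC against WT 4 were lower and none higher by edgeR, with a median of -0.22, while 3 were higher and 8 lower with all 12 mice in one fit, 2 and 4 without the filter on low counts and 2 and 9 by DESeq2, the higher ones being among Abcd2, Fabp4 and Fabp5. The 4 were Nudt7, a peroxisomal CoA hydrolase (-0.73, adjusted p = 0.00676 by edgeR), Acsl6, an acyl-CoA synthetase (-2.08, at 0.386 FPKM or less in every mouse), the mitochondrial acetyl-CoA synthetase Acss1 (-1.15) and the thioesterase Acot6 (-0.70). Nudt7 was at 5.19, 6.07, 4.39 and 5.42 FPKM in WT mice, at 3.17, 3.53, 2.98 and 3.01 FPKM in RC/RC mice and at 3.41, 3.90, 3.505 and 3.34 FPKM in RC/RC:Casp1KO mice. Both RC groups lay wholly below WT, and Nudt7 was the single gene of the list called in RC/RC:Casp1KO against WT (-0.57, adjusted p = 0.0483). Between the RC groups edgeR called 0 of 64, with 9 at an unadjusted p under 0.05, and DESeq2 called 5.

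Among regulators related to PPARα, Pparg, the receptor known from fat cells, rose by 1.96 on the log2 scale in RC/RC against WT (adjusted p = 0.0331 by edgeR), and its level of 8.98 FPKM in RC139 stood far above the 2.24 to 2.69 FPKM of the other RC/RC mice. Between the RC groups Ppargc1b, the relative of Ppargc1a, was 1.03 higher in the knockout mice (adjusted p = 0.0194) and Med1, a Mediator subunit that binds PPARα, was 0.59 higher (adjusted p = 0.0246). Ppargc1b was also 0.69 higher in the knockout mice than in WT (adjusted p = 0.0483).

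Of 22 targets of PPARα outside the 41, of which 19 or 20 were tested, none was called against WT, and between the RC groups Ucp2, a mitochondrial carrier, fell by 0.86 (adjusted p = 0.0246 by edgeR). Among 7 lipolysis genes, Abhd5, the activator of adipose triglyceride lipase, fell by 0.41 in RC/RC:Casp1KO against WT (adjusted p = 0.0449). No call was made by edgeR among 16 lipid synthesis genes, where 1, 1 and 2 had an unadjusted p under 0.05, or among 11 genes of mitochondrial mass, where 2, 0 and 3 did. The median of the mitochondrial mass genes was -0.23 in each comparison with WT.

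Markers of kidney cell types moved with these groups. Of 27 proximal tubule markers, 4 were lower in RC/RC than in WT (Cubn, Slc34a3, Slc5a2 and Slc7a8), 26 had estimates below zero, and the median was -0.62, beside -0.20 for the 41 oxidation genes. Between the RC groups 3 were higher in the knockout (Cubn, Lrp2 and Slc34a3) with a median of 0.31. Leaving out a single mouse moved that median to between 0.11 (without Del3_42) and 0.57 (without RC143), and it was 0.14 without RC139. Of these markers, Keg1 alone was called, lower, in RC/RC:Casp1KO against WT. Kap, the most abundant of them, ranged from 3850 to 30200 FPKM within WT, and the summed level of the list was 12760 to 39560 FPKM in WT, 9898 to 32910 FPKM in RC/RC and 13440 to 39280 FPKM in RC/RC:Casp1KO. In RC/RC against WT 8 of 13 markers of injured tubule rose, and the median of the list was 1.68. Between the RC groups 3 fell. Spp1, the most abundant of the list, was not called. The part of these cell types in the lower Ppara and Ppargc1a was not tested.

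All 9 fibroblast markers rose in RC/RC against WT and 7 fell between RC/RC and RC/RC:Casp1KO, and their summed level was 75.3 to 95.03 FPKM in WT mice, 238 to 551 FPKM in RC/RC mice and 94.4 to 172.5 FPKM in knockout mice, with Dcn most abundant. Of the tested markers, 8 of 9 for macrophages (Lyz2 most abundant) and 7 of 8 for lymphocytes (Cd3e most abundant) also rose in RC/RC. In the knockout against RC/RC, 2 and 1 of these fell. In the thick limb and distal tubule list, whose most abundant gene, Umod, was not called, 3 of 8 fell in RC/RC, and of 5 podocyte markers, with Podxl the most abundant and not called, 1 fell (Nphs1). None of the 9 collecting duct markers tested, with Aqp2 the most abundant, was called by edgeR in any comparison, with 6, 1 and 1 at an unadjusted p under 0.05. Among 7 endothelial markers Plvap, the most abundant, was called, lower in the knockout than in RC/RC. The part of these cells in the result was not tested.

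Adipocyte markers were high in the library of RC139. The summed level of 8 adipocyte markers was 1391 FPKM there, of which Cfd made up 1106 FPKM, and 142.6 FPKM in RC143, against 0.547 to 55.1 FPKM in the other 10 mice. Adipoq reached 77.3 FPKM and Ucp1, the uncoupling protein of brown fat, 16.01 FPKM in RC139. This mouse also had the lowest Ppara, Ppargc1a and Etfdh of all 12. Without it, Ppara fell by 0.77 (adjusted p = 0.0116 by edgeR) and Eci1 rose by 0.81 (adjusted p = 0.0472) in RC/RC against WT, Ppara was 0.53 higher in the knockout than in RC/RC (adjusted p = 0.0372), and Ppargc1a was no longer called (-0.64, adjusted p = 0.0967). The summed level of 8 adrenal markers, 1 of them without a read, was at most 2.05 FPKM and that of 5 muscle markers at most 0.850 FPKM in any mouse. The 5 liver markers summed to 21.4 to 831.5 FPKM, with Cyp2e1, which the kidney also expresses, as the most abundant, and none was called by edgeR (0 at an unadjusted p under 0.05 in each comparison).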

How the data were processed

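Poly(A) libraries were sequenced by Novogene, and the submitters' processing notes name CASAVA 1.8, STAR and mm10. The counting tool, annotation and strand setting are not given in the sources used here. The deposited counts are the authors' raw reads per gene, without normalization, and the deposited gene length is in bases. The authors' DESeq2 fold changes, p-values, FPKM and group means in the same table were not used. Columns of unknown group numbered 0.

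Counts were fitted with edgeR 4.0.16 in R 4.3.3 (TMM factors, filterByExpr, quasi-likelihood test, 8 mice per comparison). FPKM used the effective library sizes of all 12 mice and the deposited length. DESeq2 1.42.0 and sva 3.50.0 served alternatives, and the fits were tested on simulated data. Near copies were sought with BLAST 2.17.0 at 90% identity over at least 450 bases. Intervals cover 95%. Whether mice came from separate litters is not stated, so p-values measure the spread between these mice. It is also not stated whether WT mice were littermates of the RC mice. A difference between breeding stocks therefore cannot be told apart from one of genotype. Counts of every pair of mice within a group differed by more than sampling noise.

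The 41 genes, the other lists and the tests were chosen with earlier results of these data known. Values in every mouse are given for Casp1, the 5 members with the smallest adjusted p in each comparison, the 3 highest and 2 lowest members, the regulators, and the pairs Acaa1a with Acaa1b and Acot1 with Acot2; of other lists, genes called are named, apart from some results that are not reported here. Overlapping genes were not resolved, as for Acadvl with Dvl2, Acsm3 with Eri2 and Scp2 with Podn.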

Additional observations from a re-analysis of the deposited data

Results flagged for a closer look

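Within groups of 4 mice, 5 of 123 combinations of gene and group held a mouse whose gap to its nearest neighbour was larger, as a share of the range of the group, than Dixon's 95% critical value. Chance flags about 1 in 20 groups, about the share seen here. In RC/RC:Casp1KO mouse Del3_42, Etfa was at 269 FPKM, Acaa1a at 50.7 FPKM and Scp2 at 312 FPKM, each above the other knockout mice. In RC/RC mouse RC143, Ehhadh was at 321 FPKM, above the other RC/RC mice, and leaving this mouse out gave a call for Ehhadh. In WT mouse B6_4, Acaa1a was at 42.6 FPKM, below the other WT mice.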

How the results depend on the processing

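Of 405 refits of 9 members with small p-values, 361 kept direction and side of the threshold, 24 lost a call, 12 gained one and 8 changed sign. Ppara in RC/RC against WT was called in each of the 14 planned refits (adjusted p at most 0.0408). No paired analysis was possible because the count columns carry no replicate number.

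Members called in RC/RC against WT, RC/RC:Casp1KO against RC/RC and RC/RC:Casp1KO against WT were 5, 2 and 5 with 1 surrogate variable, an alternative chosen after seeing the data. In the last comparison 2 were called with library size alone, 0 with all 12 mice in one fit and 4 by DESeq2 (Ech1, Etfdh and Pdk4 lower, Eci1 higher). Leaving out each mouse in turn gave 1 to 5, 0 to 3 and 0 to 1. The cause was not tested.

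Other fatty acid oxidation genes called in RC/RC against WT were 2 with library size alone, 11 with all 12 mice, 9 with the surrogate variable and 11 by DESeq2. Between the RC groups they were 1, 3, 3 and 5. In RC/RC:Casp1KO against WT they were 0 with library size alone, without the filter and with at least 10 counts in every mouse, 7 with the surrogate variable and 3 by DESeq2. Leave-one-out ranges were 1 to 9, 0 to 4 and 0 to 1. Proximal tubule markers called were 9, 8 and 4 by DESeq2 in the same order of comparisons, 7 and 3 with the surrogate variable and 5 and 0 with all 12 mice in the last pair, and 1 to 6, 2 to 5 and 0 to 1 without 1 mouse.

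Over all genes, calls between the RC groups were 993 with library size alone and 3207 by DESeq2, and calls in RC/RC:Casp1KO against WT were 167 with at least 10 counts, 1347 with the surrogate variable and 1366 by DESeq2. Leaving out each mouse gave 1162 (without B6_6) to 2440, 438 (without RC140) to 2789 (without RC105) and 108 (without B6_6) to 547 (without Del3_42).

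Sign changed only for values near zero. With library size alone, Decr2 between the RC groups was 0.0082 and Etfb in RC/RC:Casp1KO against WT 0.061. Leave-one-out ranges that crossed zero were -0.28 to 0.068 for Fabp3 in RC/RC against WT, -0.16 to 0.057 for Decr2 and -0.016 to 0.30 for Etfdh between the RC groups, and -0.16 to 0.0058 for Etfb in RC/RC:Casp1KO against WT.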
